A study of Urocitellus parryii with 3 samples.

Results

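The miR-30 family, the liver microRNAs miR-30a-5p, miR-30b-5p, miR-30c-5p, miR-30d-5p and miR-30e-5p, was followed through 3 small RNA libraries of the arctic ground squirrel, Urocitellus parryii. This rodent passes the winter in torpor bouts with short arousals between them. Members were taken as the distinct reads that share their first 18 bases with a mature 5p form. They are 5 of the 149 mature miRNAs to which reads were matched, and each of the 5 had reads in every library. The reference, called post-reproduction, was RNA mixed from 6 animals kept at 16 h light and 8 h dark. The early arousal and late torpor libraries, called arousal and torpor from here on, each came from RNA of 4 animals kept at 4 h light and 20 h dark. Per the labels, hibernating animals had gone through at least 4 torpor bouts and were killed on day 4 of a bout. How that day applies to arousal is not stated. No genetic change or drug is named in the labels for any group. Every stage is 1 library of pooled RNA, so there is no replicate, no test between stages and no p-value. Each ratio compares a pair of libraries and not the stages, and its 95% interval holds for counting error alone. Against post-reproduction, light cycle and hibernation cannot be told apart.

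A microRNA guides the silencing machinery to messenger RNAs that pair with its seed, the bases near its 5′ end. The miR-30 miRNAs share a seed and so are thought to share many targets, and they differ mainly in the middle and at the 3′ end. In mammals they come from hairpins at several loci, and in liver the family has been studied for lipoprotein secretion (miR-30c), autophagy (miR-30a) and fibrosis. Each hairpin can yield a product from its 5p arm, treated here as the member, and another from its 3p arm.

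The mature forms below were read from the deposited reads, and they are shown because the bases that separate the members decide to which of them a read is counted. Capitals mark the seed, bases 2 to 8 counted from 1 at the 5′ end.
miR-30a-5p: tGTAAACAtcctcgactggaag
miR-30d-5p: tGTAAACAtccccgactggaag
miR-30e-5p: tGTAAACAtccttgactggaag
miR-30b-5p: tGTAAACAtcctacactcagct
miR-30c-5p: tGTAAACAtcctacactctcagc
Over the first 18 bases miR-30a-5p and miR-30d-5p differ by T12C alone, and miR-30a-5p and miR-30e-5p by C13T alone, with the base of miR-30a-5p written first. miR-30d-5p and miR-30e-5p differ at 2 of these 18 bases. miR-30b-5p and miR-30c-5p have the same first 18 bases and part only at base 19. The family thus falls into an a, d and e group and a b and c group, which differ from each other at 3 or 4 of the 18 bases.

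The members' reads were placed at 5 loci. The sources used here name neither the genome build nor an annotation of it, so gene context is not stated. miR-30a-5p lay on the minus strand of scaffold 2151 at 19959 to 19980, and miR-30e-5p on the plus strand of GeneScaffold 1740 at 138311 to 138332. miR-30c-5p lay on the minus strand of scaffold 2148 at 227905 to 227927. miR-30d-5p, at 70486 to 70507, and miR-30b-5p, at 68353 to 68374, shared the minus strand of scaffold 123467, with 2133 bases between their starts. None of the 2246 distinct reads of miR-30a-5p, miR-30d-5p and miR-30e-5p was placed elsewhere. All 425 reads with the start shared by miR-30b-5p and miR-30c-5p were placed at more than 1 position. Their later bases assigned all but 2 of them to 1 of the pair, and those 2 were split equally, which gives the fractions of a read below.

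The libraries held 5611673 to 5860476 placed reads, of which 92.1% to 94.8% matched a listed miRNA. Levels are normalised CPM, miRNA reads scaled for library size, and 3 reads correspond to 0.547 to 0.574 CPM. Of the 5 hepatocyte markers, miR-122-5p and miR-122-3p had reads in every library. The other 3 (miR-148a-3p, miR-192-5p, miR-194-5p), matched by sequences written from general knowledge, had no placed read in any. The hepatocyte list summed to 804400 CPM in post-reproduction, 741316 in arousal and 849559 in torpor. Markers of other cell types differed between the libraries as well. The red cell list (3 of 3 detected in every library) summed to 184 CPM in post-reproduction, 140 in arousal and 303 in torpor. Its markers did not share 1 direction in arousal against post-reproduction. The ratio was 1.19 (1.03 to 1.37) for miR-451a-5p, 0.578 (0.419 to 0.791) for miR-144-3p and 0.495 (0.424 to 0.577) for miR-486-5p. Of the leukocyte markers in that comparison, miR-142-5p had an interval above 1 (1.06 to 1.47) and miR-146a-5p one below 1 (0.437 to 0.787). The other leukocyte markers had at most 14 reads in either library. A sum thus does not give the direction of each marker in it. The leukocyte list (4 of 6) summed to 78.6, 78.3 and 113 CPM, the mesenchymal and stellate list (4 of 5) to 4320, 4528 and 3527, and the endothelial list (2 of 2) to 29.6, 32.3 and 38.0. The epithelial list (2 of 4) summed to 44.0, 17.3 and 21.5 CPM, and the muscle list (2 of 3) to 1688, 3111 and 2386. Their part in the miR-30 values was not tested, and in pooled tissue fewer cells of a type and less RNA per cell cannot be told apart.

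miR-30a-5p was the most abundant member in all 3 libraries, followed in the same order each time by miR-30d-5p, miR-30e-5p, miR-30c-5p and miR-30b-5p. All mature forms are 22 or 23 nt long, so no correction for length was made. miR-30a-5p, studied for its action on autophagy, had 3916 reads in post-reproduction, 3120 in arousal and 3005 in torpor, or 749, 569 and 571 normalised CPM. It stood at rank 28, 27 and 27 among the listed miRNAs. miR-30d-5p had 2662, 1914 and 2356 reads in the same order, or 509, 349 and 448 CPM. Their exact Poisson intervals did not overlap in any library, so the order of these 2 members exceeds counting error.

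miR-30e-5p was several-fold lower, at 564 reads in post-reproduction, 574 in arousal and 612 in torpor (108, 105 and 116 CPM). miR-30c-5p, the member known for an effect on lipoprotein secretion, had 122.5, 127.5 and 126 reads, or 23.4, 23.3 and 24.0 CPM. miR-30b-5p was at the bottom with 22.5, 13.5 and 13 reads, or 4.30, 2.46 and 2.47 CPM. Neighbours in this order also had intervals apart from each other in every library. miR-30b-5p was nonetheless above the level of 3 reads throughout. With reads identical to the mature form alone, miR-30b-5p stood above miR-30c-5p, whose reads mostly run past that form. The counts were then 19, 11 and 7 reads for miR-30b-5p and 8, 8 and 6 for miR-30c-5p. Intervals of their family shares overlapped in every library, so that order was not resolved.

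**Figure D1:**
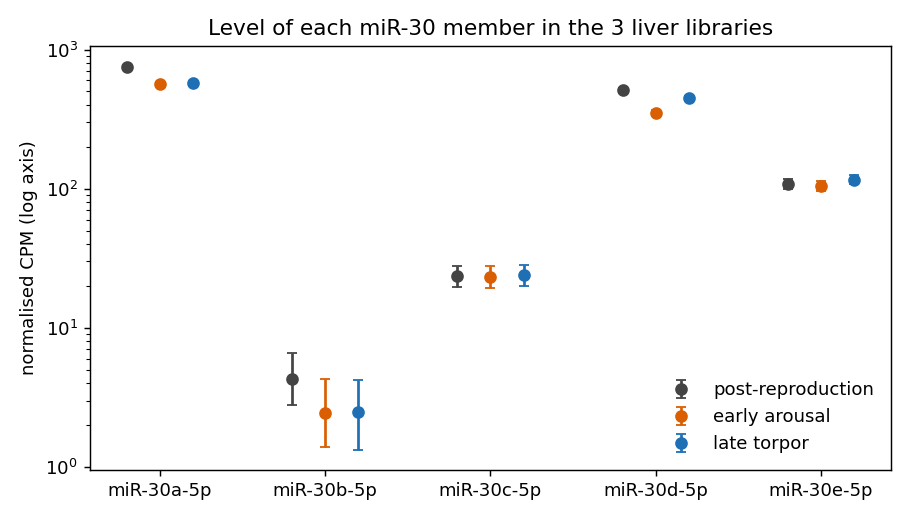
Normalised CPM (log axis) of each of the 5 miR-30 members in the post-reproduction, arousal and torpor libraries; points are single libraries and bars are exact Poisson 95% intervals. miR-30a-5p and miR-30d-5p sit at 349 to 749 CPM, miR-30e-5p near 100, and miR-30b-5p under 5 CPM.

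The make-up of the family was similar in the 3 libraries, with small shifts away from miR-30a-5p in torpor. miR-30a-5p supplied 53.7% of family reads in post-reproduction (exact binomial interval 52.6 to 54.9), 54.3% in arousal (53.0 to 55.6) and 49.2% in torpor (47.9 to 50.4). The torpor interval lay below both others. miR-30d-5p supplied 36.5%, 33.3% and 38.5%, with the lowest share in arousal. For miR-30e-5p the share was 7.74% in post-reproduction (7.14 to 8.38), 9.98% in arousal (9.22 to 10.8) and 10.0% in torpor (9.27 to 10.8), so both hibernation libraries lay above post-reproduction. miR-30c-5p held 1.69% to 2.23% and miR-30b-5p 0.213% to 0.316%, with intervals that overlapped between libraries. These shares do not depend on the scaling between libraries, but they did depend on the matching. Among reads identical to the mature form, miR-30a-5p held 67.3% (63.7 to 70.8) in post-reproduction and 67.3% (63.9 to 70.7) in torpor. The miR-30e-5p share was then 2.62% (1.56 to 4.12), 3.18% (1.96 to 4.88) and 3.16% (2.04 to 4.67), with intervals that overlapped.

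In torpor against post-reproduction, the most abundant members were modestly lower and the rarer ones were not resolved from equality. miR-30a-5p was lower in torpor, with a ratio of 0.763 (0.727 to 0.800). miR-30d-5p was lower by less, at 0.880 (0.832 to 0.930). With 1 mismatch accepted its log2 ratio was -0.064 (-0.144 to 0.016), which holds equality, while that of miR-30a-5p was -0.28 (-0.35 to -0.21). The reads of miR-30a-5p did not change under that rule, and those of miR-30d-5p became 2377 in torpor and 2672 in post-reproduction. Both shifts came mainly from the scaling, which was recomputed on the matches of that rule. The family sum was 7287 reads in post-reproduction and 6112 in torpor, a ratio of 0.834 (0.806 to 0.863). Counting only reads identical to the mature form turned the direction, to log2 ratios of 0.25 for the sum, 0.25 for miR-30a-5p and 0.34 for miR-30d-5p, from 686 family reads in post-reproduction and 759 in torpor.

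For miR-30e-5p the ratio was 1.08 (0.960 to 1.21), and with 1 mismatch accepted its log2 ratio was 0.22 (0.058 to 0.39), above equality. That rule changed its reads only from 612 and 564 to 617 and 568, so this shift too came mainly from recomputed scaling. The ratio was 1.02 (0.788 to 1.32) for miR-30c-5p and 0.574 (0.261 to 1.16) for miR-30b-5p. The interval for miR-30b-5p, from few reads, spans everything from a several-fold lower level to a small increase. Of the 84 listed miRNAs with at least 100 reads over both libraries, 39.3% had an interval below 1 and 23.8% an interval above 1. Of the 4 members with that many reads, 2 had an interval below 1 and 0 an interval above 1. None of the 4 members with at least 100 reads was 1.5-fold different in either direction, while 10.7% of those 84 miRNAs were (4.76% higher and 5.95% lower). The median log2 ratio was -0.08 over the 4 members with at least 100 reads, close to the -0.06 over the 84 miRNAs, and -0.18 with miR-30b-5p included.

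In arousal against post-reproduction the same 2 members were lower, and miR-30d-5p was the lowest of those well counted. The ratio was 0.686 (0.646 to 0.728) for miR-30d-5p and 0.760 (0.725 to 0.797) for miR-30a-5p. miR-30e-5p stood at 0.971 (0.863 to 1.09) and miR-30c-5p at 0.993 (0.769 to 1.28), so neither was shown to differ. The ratio of miR-30b-5p was 0.572, with an interval from 0.276 to 1.18. The family sum, 5749 reads in arousal, had a ratio of 0.753 (0.727 to 0.779). With reads identical to the mature form alone, none of these 3 differences was resolved. The log2 ratios were then -0.017 (-0.21 to 0.18) for miR-30a-5p, -0.13 (-0.45 to 0.18) for miR-30d-5p and -0.054 (-0.21 to 0.10) for the sum.

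Again 2 of the 4 members with at least 100 reads had an interval below 1, against 36.9% of the 84 listed miRNAs. An interval above 1 was found for 0 of these 4, against 36.9%. No member with at least 100 reads passed 1.5-fold, compared with 17.9% of the listed miRNAs (7.14% higher and 10.7% lower). Among reads with the adapter found, miR-30d-5p did pass it, at a log2 ratio of -0.61. The median log2 ratio was -0.22 over the 4 members with at least 100 reads and 0.00 over the 84, and -0.40 with miR-30b-5p included. Both comparisons use the same post-reproduction library, so their likeness is not independent.

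Between the hibernation libraries, which shared a light cycle, miR-30d-5p was lower in arousal under every alternative run, and calls for miR-30a-5p and miR-30e-5p depended on the processing. The ratio of miR-30d-5p in arousal to that in torpor was 0.780 (0.734 to 0.829). miR-30a-5p was nearly equal at 0.997 (0.948 to 1.05). The ratio was 0.900 (0.802 to 1.01) for miR-30e-5p, 0.971 (0.756 to 1.26) for miR-30c-5p and 0.997 (0.451 to 2.39) for miR-30b-5p. With 1 mismatch accepted, log2 ratios of -0.14 (-0.22 to -0.070) for miR-30a-5p and -0.28 (-0.44 to -0.11) for miR-30e-5p lay below equality. So did miR-30e-5p with median-of-ratios factors, at -0.17 (-0.34 to -0.0052), and miR-30a-5p among identical reads, at -0.26 (-0.45 to -0.076). Accepting 1 mismatch left miR-30a-5p at 3120 and 3005 reads in arousal and torpor and gave miR-30e-5p 583 and 617. The shift under that rule came from scaling factors recomputed on its matches, not from added reads of these members. The interval was below 1 for 1 of the 4 members with at least 100 reads, against 29.8% of the 84 listed miRNAs. It was above 1 for 0 of these 4, against 31.0%. Past 1.5-fold there were 0 members, against 14.3% of the listed miRNAs, with 7.14% in each direction.

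The family sum had an arousal to torpor ratio of 0.903 (0.871 to 0.936), or -0.15 on the log2 scale. That direction rested on the scaling. Plain CPM raised all log2 ratios here by 0.16 and put the sum at 0.02, and scaling by all placed reads moved it by 0.12 to -0.03. Under plain CPM the log2 ratio of miR-30a-5p became 0.16, with its interval above 1, while that of miR-30d-5p stayed below 0 at -0.20. The same change turned the split of listed miRNAs with intervals above and below 1 from 26 and 25 to 44 and 11.

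**Figure D2:**
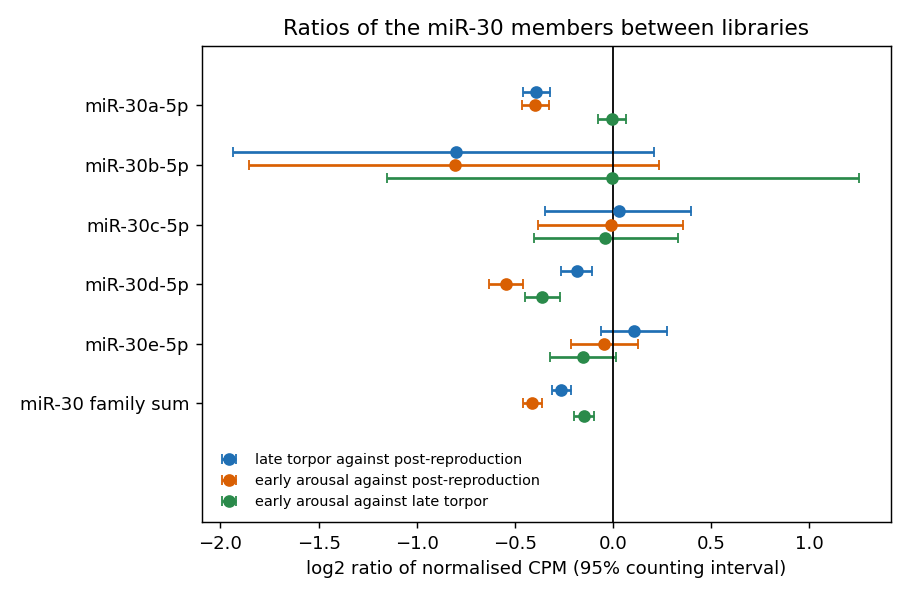
Log2 ratio of normalised CPM for each miR-30 member and the family sum in the 3 comparisons of libraries; bars are exact conditional binomial 95% intervals for counting error, and the line marks equality. miR-30a-5p and miR-30d-5p lie below 0 against post-reproduction, and intervals widen to the rarest member, miR-30b-5p.

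The sums of 3 other families, chosen for comparison, did not share this direction. The summed let-7 family, regulators of growth and metabolism, had ratios of 1.08 in torpor and 1.03 in arousal against post-reproduction. The miR-29 family, known to restrain collagen genes, had 1.04 and 1.05, and the miR-26 family 1.11 and 1.12. Single miRNAs, named here after their values were seen, did share it, such as let-7b-5p at 0.724 and 0.749 within let-7, and miR-222-3p at 0.731 and 0.821. All 6 intervals of the 3 sums lay above 1, where those of the miR-30 sum lay below 1. Under plain CPM the miR-29 ratio in torpor turned to 0.991 (0.975 to 1.01), and with scaling by placed reads it was 1.01 with an interval that holds 1. Among 67 listed miRNAs outside the family with at least 100 reads in each library, the 3 whose centred log2 levels over the 3 libraries were closest to the miR-30 sum were miR-24-3p, miR-124-3p and miR-148b-3p, at Euclidean distances of 0.08, 0.09 and 0.09. miR-24-3p stood at 557 CPM in post-reproduction, 453 in arousal and 491 in torpor, the same order as the miR-30 sum (1394, 1049 and 1162). With 3 libraries this likeness is a description only.

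The 3′ ends of the members differed between libraries as well. Reads are 30 bases long, so the end of the RNA insert was read where the 3′ adapter followed it. The inserts of miR-30a-5p most often found are shown because the ratio between libraries depended on which of them was counted.
miR-30a-5p, 22 nt: tgtaaacatcctcgactggaag
miR-30a-5p, 23 nt: tgtaaacatcctcgactggaagc
miR-30a-5p, 24 nt: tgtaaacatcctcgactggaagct
All 3 matched the genome over their whole length and share a seed, so they differ only by how far they run at the 3′ end.

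The longest of these inserts carried the largest difference from post-reproduction. The 24 nt insert had 1079 reads in post-reproduction, 723 in arousal and 624 in torpor, with ratios of 0.639 (0.581 to 0.703) in arousal and 0.575 (0.520 to 0.635) in torpor. The 23 nt insert had 932, 733 and 785 reads, with ratios of 0.750 (0.680 to 0.827) and 0.837 (0.760 to 0.922). The 22 nt insert, the mature form itself, had 462, 434 and 511 reads, with ratios of 0.896 (0.784 to 1.02) and 1.10, both with intervals that hold 1. With scaling recomputed on identical reads alone, the same reads gave a torpor log2 ratio of 0.25 (0.062 to 0.43), above equality. The lower total of miR-30a-5p was therefore found in its longer forms, and the form of mature length was not shown to be lower.

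miR-30d-5p had the same order of ends. Its 24 nt insert, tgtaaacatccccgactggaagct, had 940, 526 and 685 reads in post-reproduction, arousal and torpor. The ratio against post-reproduction was 0.534 (0.479 to 0.595) in arousal and 0.724 (0.655 to 0.800) in torpor. The 22 nt form had 179, 155 and 211 reads, with ratios of 0.826 (0.662 to 1.03) and 1.17 (0.956 to 1.44). With scaling recomputed on identical reads alone, its torpor log2 ratio was 0.34 (0.044 to 0.63), above equality. In torpor the intervals of the 24 nt and 22 nt inserts did not overlap, for either miR-30a-5p or miR-30d-5p. For miR-30e-5p, with 225, 196 and 221 reads of the 24 nt insert, the ratios were 0.831 (0.683 to 1.01) and 0.976 (0.807 to 1.18).

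**Figure D3:**
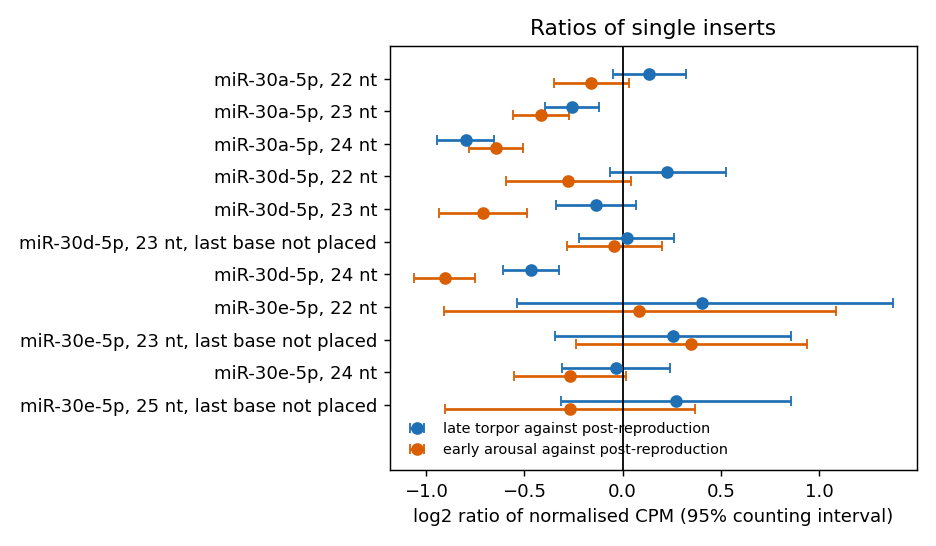
Log2 ratio of normalised CPM for single inserts of miR-30a-5p, miR-30d-5p and miR-30e-5p, arousal and torpor each against post-reproduction; bars are exact conditional binomial 95% intervals, and inserts marked as such end in 1 base that was not placed on the genome. Among the inserts of miR-30a-5p and of miR-30d-5p the 24 nt insert lies lowest in each comparison, and the 22 nt inserts have intervals that hold 0.

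As a share of all inserts of a member, whatever their last bases, 24 nt was highest in post-reproduction for the 3 most abundant members. For miR-30a-5p it was 38.3% in post-reproduction (36.6 to 39.9), 32.1% in arousal (30.4 to 33.8) and 28.3% in torpor (26.6 to 30.0). The 22 nt share ran the other way at 15.2%, 17.9% and 21.0%. The 24 nt share of miR-30d-5p was 49.9% (47.9 to 52.0), 41.5% (39.1 to 43.9) and 42.1% (40.0 to 44.3). Post-reproduction thus stood above both other libraries beyond counting error for these 2 members.

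The 24 nt share of miR-30e-5p was 60.5% (55.7 to 65.1), 53.4% (48.6 to 58.2) and 54.3% (49.8 to 58.8), with intervals that overlapped. miR-30c-5p had 76.1%, 71.7% and 76.0% at 24 nt, from 117 to 121 inserts a library. miR-30b-5p ended differently, with 37 of 44 inserts at 22 nt. Member by member, then, the preferred end lay at 23 nt or 24 nt for miR-30a-5p, at 24 nt for miR-30c-5p, miR-30d-5p and miR-30e-5p, and at 22 nt for miR-30b-5p.

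Summed over other miRNAs, the 24 nt share did not have this direction. Over the listed miRNAs without miR-30 and the dominant miR-122-5p, 24 nt inserts made up 3.99% in post-reproduction, 4.08% in arousal and 4.12% in torpor. That sum is weighted to its most abundant miRNAs, such as let-7f-5p with 550101 reads in post-reproduction. The 24 nt shares of single miRNAs outside the family were not examined. Over the miR-30 family the share was 44.6% (43.3 to 45.8), 37.8% (36.5 to 39.2) and 36.8% (35.5 to 38.1). The adapter was found in 83.4%, 84.3% and 88.1% of placed reads in the same order of libraries, and its part in the length shares was not tested.

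**Figure D4:**
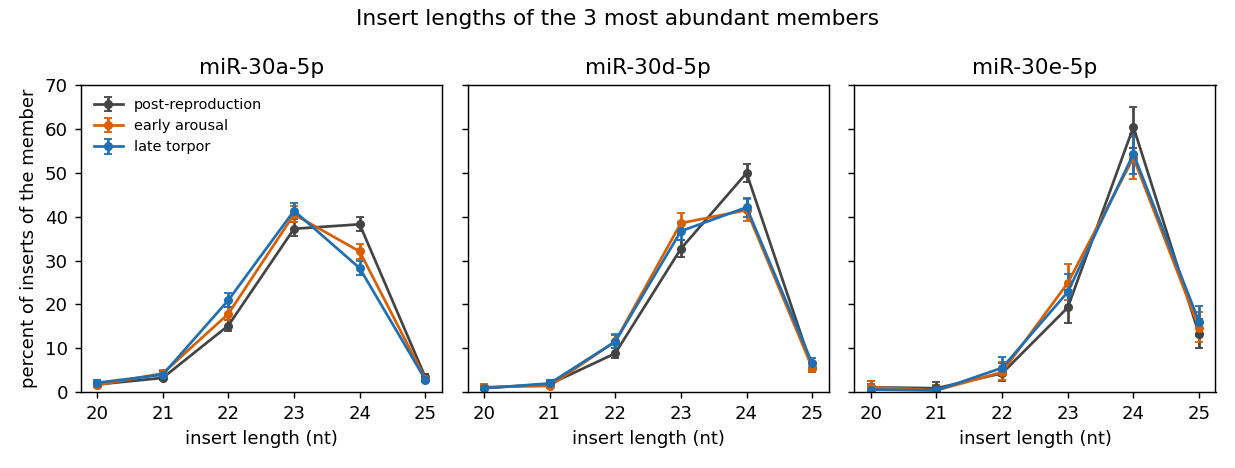
Percent of the inserts of miR-30a-5p, miR-30d-5p and miR-30e-5p at each length from 20 to 25 nt in the 3 libraries; points are single libraries and bars are exact binomial 95% intervals. At 24 nt the post-reproduction library is highest in each panel, at 38.3%, 49.9% and 60.5%.

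Part of the inserts ended in bases that were not placed on the genome, as is known for miRNAs to which enzymes add nucleotides. A single unplaced A was the commonest such end of miR-30a-5p, miR-30d-5p and miR-30e-5p, and its leading form in miR-30d-5p is shown with the unplaced base in capitals.
miR-30d-5p, 23 nt with unplaced A: tgtaaacatccccgactggaagA
It had 282 reads in post-reproduction, 287 in arousal and 288 in torpor, with ratios of 0.971 (0.821 to 1.15) and 1.02 (0.858 to 1.20) against post-reproduction. Its level thus did not share the difference of the fully placed 24 nt insert, and the intervals of the pair were apart in both comparisons.

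The share of miR-30d-5p inserts with any unplaced end was 29.7% in post-reproduction (27.8 to 31.6), 38.2% in arousal (35.8 to 40.6) and 34.3% in torpor (32.3 to 36.4). Both hibernation libraries therefore lay above post-reproduction. A single A took 17.2%, 22.4% and 20.2%. For miR-30a-5p the unplaced share was 24.2%, 27.5% and 24.7%. Its interval in arousal (25.8 to 29.1) lay just above that in post-reproduction (22.8 to 25.6) and overlapped that in torpor. The share was 33.6%, 37.9% and 37.2% for miR-30e-5p and 24.8%, 21.7% and 24.8% for miR-30c-5p, with intervals that overlapped between libraries. miR-30b-5p had 6 such ends among 44 inserts.

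miR-30e-5p had a higher share of inserts with an unplaced T than miR-30a-5p or miR-30d-5p. A single T ended 11.1% of its inserts over the 3 libraries (9.45 to 12.9), against 2.81% for miR-30a-5p (2.48 to 3.17) and 4.80% for miR-30d-5p (4.27 to 5.38). The leading form, tgtaaacatccttgactggaagctT, had 47, 41 and 57 reads in post-reproduction, arousal and torpor. Its ratios against post-reproduction were 0.832 (0.534 to 1.29) and 1.21 (0.805 to 1.81), so no difference between libraries was resolved.

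The 5′ ends were far more uniform than the 3′ ends. A start within 2 bases of the mature start, but not at it, was found for 1.10% of miR-30a-5p reads over the 3 libraries (0.909 to 1.33) and 0.216% of miR-30d-5p reads (0.121 to 0.356). miR-30e-5p had the highest share at 2.40% (1.74 to 3.22), nearly all of it 1 base later, which moves the seed by 1 base. For miR-30c-5p 0 of 376 reads started elsewhere, with an upper exact bound of 0.976%, and for miR-30b-5p 1 of 50 did. Shares by library overlapped for each of miR-30a-5p, miR-30d-5p and miR-30e-5p.

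Reads of the other arm were found downstream of all 5 members, on the same strand and 38 to 42 bases from the 5p start. They were matched by position, and the most frequent insert of each is given because the arms show a grouping of their own. Capitals again mark bases 2 to 8.
miR-30a locus, 3p: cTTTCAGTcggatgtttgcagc
miR-30d locus, 3p: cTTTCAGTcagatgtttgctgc
miR-30e locus, 3p: cTTTCAGTcggatgtttacagca
miR-30b locus, 3p: cTGGGAGGtggatgtttactt
miR-30c locus, 3p: cTGGGAGAaggctgtttact
The a, d and e loci share a 3p seed, TTTCAGT, which the b and c loci do not have.

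How much of a hairpin's reads came from the 3p arm varied from under 1% to most of them. At the miR-30d locus 34 of 6966 reads were 3p, or 0.488% (0.338 to 0.681). At the miR-30a locus the 3p share was 10.3% (9.76 to 10.9) and at the miR-30e locus 23.8% (22.1 to 25.6). At the miR-30c locus 407 reads were 3p and 376 were 5p, a share of 52.0% (48.4 to 55.5). At the miR-30b locus most reads were 3p, 141 against 49, or 74.2% (67.4 to 80.3). These are shares of reads, and whether both arms were captured equally in the libraries was not tested.

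The hairpins with the lowest and the highest 3p share, miR-30d and miR-30b, were thus neighbours on 1 scaffold. The 5p reads of miR-30c-5p can come from any hairpin with the same mature sequence, and only 1 locus was found here, so its share holds for reads assigned by sequence. With the 3p arms counted, the miR-30b locus gave 10.3, 8.03 and 8.17 CPM of 3p reads in post-reproduction, arousal and torpor, beside 4.30, 2.46 and 2.47 CPM of miR-30b-5p.

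At the miR-30a and miR-30e loci the 3p arm did not follow its 5p partner in arousal. At the miR-30a locus the 3p arm had 329 reads in post-reproduction, 453 in arousal and 373 in torpor. Its ratio of arousal to post-reproduction was 1.31 (1.14 to 1.52), where miR-30a-5p had 0.760. The 3p share there was 7.75% in post-reproduction (6.96 to 8.60), 12.7% in arousal (11.6 to 13.8) and 11.0% in torpor (10.0 to 12.1). At the miR-30e locus the 3p arm had 153, 221 and 172 reads and a ratio of 1.38 (1.12 to 1.70) in arousal, where miR-30e-5p was at 0.971. The other loci had 3p intervals that held 1 in this comparison. The ratio was 0.777 (0.510 to 1.18) at miR-30b and 0.596 (0.242 to 1.40) at miR-30d, below 1 like their 5p partners. At miR-30c it was 1.12 (0.887 to 1.42).

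In torpor against post-reproduction the 3p arms of all 5 loci had intervals that held 1, from 0.497 (0.184 to 1.23) at the miR-30d locus to 1.13 (0.969 to 1.31) at the miR-30a locus. In arousal against torpor the 3p ratio was 1.17 (1.01 to 1.34) for miR-30a, 1.23 (1.01 to 1.51) for miR-30e and 1.38 (1.08 to 1.78) for miR-30c. It was 0.982 (0.630 to 1.53) for miR-30b and 1.20 (0.426 to 3.50) for miR-30d. The lower bounds for miR-30a and miR-30e lay close to 1. Median-of-ratios factors shifted every log2 ratio of this pair of libraries by -0.02, and plain CPM by 0.16. The 3p shares at the miR-30c locus, 52.5%, 55.6% and 46.8% in post-reproduction, arousal and torpor, had intervals that overlapped. At the miR-30b locus the shares were 70.1%, 75.9% and 76.8%, also with overlapping intervals, from 43 to 54 3p reads a library.

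**Figure D5:**
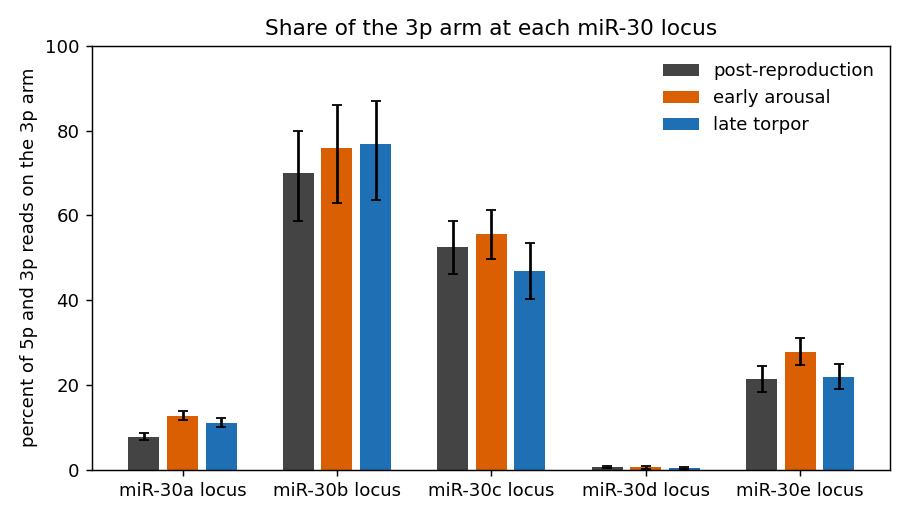
Percent of the 5p and 3p reads of each miR-30 locus that lie on the 3p arm, in the 3 libraries; bars are single libraries and error bars are exact binomial 95% intervals. The share ranges from under 1% at the miR-30d locus to over 70% at the miR-30b locus, and at the miR-30a locus post-reproduction is lowest at 7.75%.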

How the data were processed

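Small RNA (18 to 30 nt, gel-cut from about 10 µg total RNA a stage, 15 PCR cycles) was sequenced in 1 library a stage, per the labels' protocols. The authors deposited 1 table of genome positions in which an entry holds a 30-base read, its whole-number read count and its stage, per the file headers. The counts sit inside text and are not scaled to depth. At least 18 leading bases, in capitals, are placed. Aligner, build and filters: not given in the sources used here. A read carries the same count at each of its positions, so it was counted once a library.

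Each read was given to the listed mature miRNA with which it shares its first 18 bases, the longest shared start winning and ties split equally. No miRNA sequence table was used. The miR-30 forms were found in the reads by seed and by the bases that tell the members apart, and cut to 22 or 23 nt. The other 144 names were matched to sequences written from general knowledge. Reads that could not be placed over their first 18 bases, such as those from loci missing from the genome used, are not seen. Errors at later bases can add to the unplaced ends, and their part was not tested. Libraries were scaled over the listed miRNAs with trimmed mean of M-values (TMM) factors from own code (30% trimmed on ratio, 5% on abundance; factors 0.997, 1.06 and 0.946 for post-reproduction, early arousal and late torpor). Inserts of 18 to 25 nt were read where the adapter followed with no more than 1 mismatch per 5 bases. The 3p arms were reads within 2 bases of the leading start 30 to 75 bases downstream. Intervals are exact (Clopper-Pearson for shares and conditional ratios, Poisson for levels), with fractions of a read rounded up, from scipy 1.17.1 under Python 3.11.15 and numpy 2.4.6; figures used matplotlib 3.10.9. PCR reads carry no molecular identifiers, and whether the members and arms were captured equally was not tested.

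Named by rule were all 5 members, their 3p arms, the let-7, miR-29 and miR-26 sums, the 3 miRNAs most alike and the 3 leading inserts of each member. The 22 nt inserts of miR-30d-5p were added after values were seen. Members and lists were chosen with earlier results of these data known. The code was tested on simulated data. Alternatives changed the scaling, matching, placement and adapter rules and the limits on fold and reads. A change of the matching, placement or adapter rule also recomputed the scaling factors. It could therefore move the ratio of a member whose reads it left unchanged.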

Additional observations from a re-analysis of the deposited data

Results flagged for a closer look

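Reads that carry the miR-30 seed at bases 2 to 8 but share their first 18 bases with no member numbered 108 of 19256, or 0.561%, and were outside the comparisons. Of these, 3 starts had more reads than the limit that a count of 0 allows over the libraries. A start 1 base from miR-30d-5p, with the change G14T, had 48 reads on GeneScaffold 6151, namely 10 in post-reproduction, 17 in arousal and 21 in torpor. A start 1 base from miR-30e-5p, also with G14T, had 18 reads on scaffold 137774 (4, 9 and 5). A start with 2 changes from miR-30d-5p had 10 reads on GeneScaffold 4063 (2, 3 and 5). After base 18, 21 of the 48 reads, 7 of the 18 and 3 of the 10 went on with bases 19 and 20 of miR-30a-5p. Whether these reads come from loci of their own was not tested.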

How the results depend on the processing

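No paired analysis was possible because each stage has 1 library. Of 30 alternatives for the log2 ratio of the miR-30 sum, 18 moved it by less than counting error, and the 12 others follow. In late torpor against post-reproduction (-0.26) it was -0.34 under plain CPM, -0.21 with median-of-ratios factors, -0.32 scaled by placed reads and -0.14 with 1 mismatch accepted. Counting only reads identical to the mature form reversed it to 0.25, with miR-30a-5p at 0.25 and miR-30d-5p at 0.34. That rule keeps 686 and 759 family reads in post-reproduction and late torpor and leaves out the 24 nt inserts described above. It also recomputes the scaling on identical reads. In early arousal against post-reproduction (-0.41) the sum was -0.32 under plain CPM, -0.34 scaled by placed reads and -0.054 with identical reads. In early arousal against late torpor (-0.15) it was 0.016 under plain CPM, -0.026 scaled by placed reads, -0.29 with 1 mismatch and -0.30 with identical reads. Of 144 alternatives for single members, 123 stayed within counting error. With only reads in which the adapter was found, miR-30d-5p passed 1.5-fold in early arousal against post-reproduction, at -0.61.

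Of 84 listed miRNAs, 9 (late torpor) and 15 (early arousal) were past 1.5-fold against post-reproduction, and 12 between the hibernation libraries. With no minimum but 1 read in each library they numbered 20 of 106, 31 of 108 and 25 of 107 miRNAs compared. Among the 84 they numbered 3, 5 and 2 at 2-fold, and 33, 34 and 28 at the lowest limit tried. With no minimum, 1, 1 and 0 of the 5 members were past 1.5-fold. At the lowest limit, 1, 2 and 1 of the 4 members with at least 100 reads were past it. With so few members, these counts were not shown to differ from those of the listed miRNAs. In early arousal against post-reproduction the split into higher and lower was 6 and 9, but 10 and 7 under plain CPM and 9 and 7 scaled by placed reads. Between the hibernation libraries it was 6 and 6, but 9 and 4 under both.

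Among identical reads the family shares, with post-reproduction first and late torpor last, were 67.3%, 69.1% and 67.3% for miR-30a-5p and 26.1%, 24.7% and 27.8% for miR-30d-5p. They were 2.62%, 3.18% and 3.16% for miR-30e-5p, 1.17%, 1.27% and 0.791% for miR-30c-5p and 2.77%, 1.75% and 0.922% for miR-30b-5p. The last then ranked above miR-30c-5p, with intervals that overlapped in every library. An adapter search with no mismatch, chosen after seeing the data, moved 3 of 45 length shares, those of miR-30a-5p at 22 nt, to 12.2%, 16.5% and 19.2%. Counting the leading 3p start alone, also chosen after seeing the data, moved 3 of 15 arm shares, to 6.63%, 11.5% and 9.57% at the miR-30a locus. The stricter adapter rule of 8 bases was not run because it cannot read inserts over 22 nt, and without multiply placed reads miR-30b-5p and miR-30c-5p have no reads left. miR-30b-5p, with 13 to 22.5 reads a library, is limited by depth.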
